A study of Homo sapiens with 19 samples.

Results

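The 10 genes described here encode scaffold proteins of cell polarity, cell junctions and the cytoskeleton, and were examined for the use of their cassette exons and for their spliced reads. They were taken by name: PARD3, DLG1, SCRIB, MAGI1, MAGI3, TJP1, MPDZ, DST, MACF1 and NUMB, of 35872 genes with annotated splice junctions. The choice was made with earlier results of these data known. Their 560 annotated introns, of 361515 in all, gave 54 cassette exons, of 38088 in all. A cassette exon is an internal exon that a splice junction can skip, and its inclusion is the percentage of inclusion reads among inclusion plus skipping reads. Inclusion reads were the mean of the junctions on either side of the exon. Of the 54 exons, 25 could be tested in the knockdown libraries, in 8 of the 10 genes, against 6593 exons tested in all genes.

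Scaffold proteins hold receptors, adhesion molecules and enzymes together at fixed places under the cell membrane. PARD3 is the core of the PAR complex, which marks the apical side of epithelial cells, and SCRIB and DLG1 belong to the Scribble module of the basolateral side. MAGI1, MAGI3, TJP1 (the protein ZO-1) and MPDZ (MUPP1) carry several PDZ domains and sit at tight junctions. DST (dystonin) and MACF1 are giant plakins that link actin to microtubules, and NUMB is an endocytic adaptor that restrains Notch signalling. RBFOX2 is an RNA-binding protein that regulates cassette exons, and cytoskeletal and junction genes are among its known targets.

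The series measured ribosomal RNA-depleted RNA in 19 libraries from 3 established human cell lines. HUES66 is an embryonic stem cell line, HEK293 an embryonic kidney line and A375 a melanoma line. HUES66 cells given doxycycline (1 µg/ml) for 24, 48 or 96 hr made up 14 of the libraries. Of these, 3 were controls, 3 had the total RBFOX2 knockdown (total KD), 4 the N-short isoform knockdown and 4 the N-long one, with Cas13d, an RNA-guided nuclease that cuts RNA. The other 5 were single libraries of wild-type HUES66, wild-type HEK293, and A375 total, nuclear and cytoplasmic RNA, for which the labels give no doxycycline. The treated libraries formed 4 sets: 24 hr replicate 1, which has no library titled as control, 24 hr replicate 2, which has no total KD library, 48 hr and 96 hr. Total KD and control therefore met in 2 sets, and each isoform knockdown and control in 3. Nothing in the labels says that replicates came from separate cultures, so p-values measure only the spread between these libraries.

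The 14 treated libraries held 9622841 to 14625040 junction reads each, and all 19 held 6499183 to 27937149. RBFOX2 itself was at 126 to 134 normalised CPM (junction reads scaled to a common library total) in control libraries. It was at 50.6 to 81.7 after total KD, at 77.8 to 90.8 after the N-long and at 114 to 124 after the N-short knockdown. Its log2 fold changes were -0.82 ± 0.08 (SE; edgeR adjusted p = 8.61e-09), -0.57 ± 0.07 (adjusted p = 2.73e-05) and -0.06 ± 0.07 (adjusted p = 0.999). DESeq2 did not call the N-long difference (adjusted p = 0.0683). All 8 stem cell markers examined had reads in wild-type HUES66 and summed to 3309 to 5193 normalised CPM over the treated libraries. They summed to 19.5 CPM in HEK293 and 6.85 CPM in A375. The 7 melanocyte lineage markers summed to 150.9 CPM in A375 with 5 of 7 detected, 53.0 in wild-type HUES66 and 9.67 in HEK293. In A375 SOX10 and MITF stood at 107 and 41.6 CPM, TYRP1, PMEL and DCT at 1.39, 0.507 and 0.38, and MLANA and TYR at 0. PMEL was higher in HUES66 than in A375, at 50.6 CPM in the wild type and 37.5 to 74.2 normalised CPM in the treated libraries. The 9 germ layer markers summed to 0.5 to 2.75 normalised CPM in the treated libraries. The 5 fibroblast markers summed to 399 to 549 in control, 434 to 520 in total KD, 368 to 531 with N-short and 400.4 to 566 with N-long knockdown, of which COL1A1 and COL1A2 gave nearly all. DCN, a defining fibroblast gene, had 0 reads in those libraries. The part of these cells in any result was not tested.

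Sequences are shown for the 4 exons that passed in total KD and for 2 that differed between cell lines. They were read from GENCODE 29 transcripts (GRCh38), 5′ to 3′, with the cassette exon in capitals and 12 bases of the neighbouring exons of that transcript in lower case. The first 4 are those lower in total KD. In the DLG1 transcripts shown, the 34-nt exon follows the end of the 100-nt exon, and both are followed by the same bases.
MAGI1 36-nt exon, chr3:65448022-65448057, minus strand: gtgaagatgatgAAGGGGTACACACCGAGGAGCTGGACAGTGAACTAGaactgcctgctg
MACF1 18-nt exon, chr1:39465095-39465112, plus strand: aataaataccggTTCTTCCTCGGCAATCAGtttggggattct
DST 18-nt exon, chr6:56468982-56468999, minus strand: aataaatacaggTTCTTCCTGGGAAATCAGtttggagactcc
DLG1 100-nt exon, chr3:197076586-197076685, minus strand: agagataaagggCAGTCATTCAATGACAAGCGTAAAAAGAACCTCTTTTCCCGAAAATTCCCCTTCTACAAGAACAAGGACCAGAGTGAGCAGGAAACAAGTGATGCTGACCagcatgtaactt
DLG1 34-nt exon, chr3:197075837-197075870, minus strand: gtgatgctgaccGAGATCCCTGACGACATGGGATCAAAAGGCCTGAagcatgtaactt
NUMB 33-nt exon, chr14:73316390-73316422, minus strand: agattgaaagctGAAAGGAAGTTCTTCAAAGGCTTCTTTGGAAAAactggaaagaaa

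The 18-nt exons of the plakins MACF1 and DST are close copies of each other. They were identical at 16 of 18 bases within the exon, at 11 of the 12 bases before it and at 9 of the 12 after it. The DLG1 100-nt exon also exists in a form 3 nt shorter at its 5′ end, shown here by capitals on the 3 extra bases.
DLG1 100-nt exon with its 3 extra bases in capitals: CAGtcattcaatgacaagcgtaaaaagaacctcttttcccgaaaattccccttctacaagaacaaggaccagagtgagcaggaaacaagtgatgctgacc
The 97-nt and 100-nt forms share one inclusion junction and the skipping junction, so their values are not independent. The same holds for a pair of forms of a longer MAGI1 exon.

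The tested exons mostly kept the reading frame. The length of 22 of the 25 (88.0%) was a multiple of 3, against 46.8% of all exons tested, and all 25 were coding. The exons of all genes were not limited to coding ones, so these shares are not like for like. Their median length was 84 nt, the shortest being 9 nt, against a median of 106 nt for all exons tested. The 3 exceptions were the DLG1 34-nt, 97-nt and 100-nt exons. Of the 29 exons not tested, 12 were included in under 2% and 12 in over 98% of reads, and 5 had under 20 reads per library on average. The 240-nt exon of TJP1 lay just outside, at 1.88% over the 14 libraries, and neither of the 2 exons of MAGI3 had enough reads.

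Total RBFOX2 knockdown lowered 4 of the 25 exons and raised none. Among all exons tested 92 of 6593, or 1.4%, passed the threshold of an adjusted p of 0.05. Because the genes were chosen with earlier results known, shares here and in the other contrasts are set side by side only. Enrichment was not tested. The 4 lay in 4 genes: MAGI1, MACF1, DST and DLG1. Over all 25 the median log2 ratio of inclusion odds was 0.04, and over all exons 0.06. At an unadjusted p under 0.05, 10 of the 25 and 510 of all exons passed. A second test, limma on log2 ratios of inclusion to skipping reads, called 0 of the 25 and 12 of all exons, with adjusted p-values of 0.0723 for MAGI1, 0.321 for MACF1, 0.283 for DST and 0.438 for DLG1.

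The MAGI1 36-nt exon was included in 50%, 50% and 47.0% of reads in the controls of 24 hr replicate 2, 48 hr and 96 hr. In total KD it was at 14.4%, 17.6% and 22.6% at 24, 48 and 96 hr. All 3 knockdown values lay below every control, and the within-set difference was -28.3 ± 5.66 points (SD, n = 2 sets). The log2 ratio of inclusion odds was -2.12 ± 0.32 (SE), with an edgeR adjusted p of 2.05e-06. In the authors' deposited table for total KD at 24 hr, the control minus knockdown difference of this exon was 0.333 on a scale of -1 to 1, with an adjusted p of 5.94e-05. The authors' deposited tables gave 0.316 at 48 hr (adjusted p = 0.0352) and 0.23 at 96 hr, where it did not pass (adjusted p = 0.36).

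**Figure D1:**
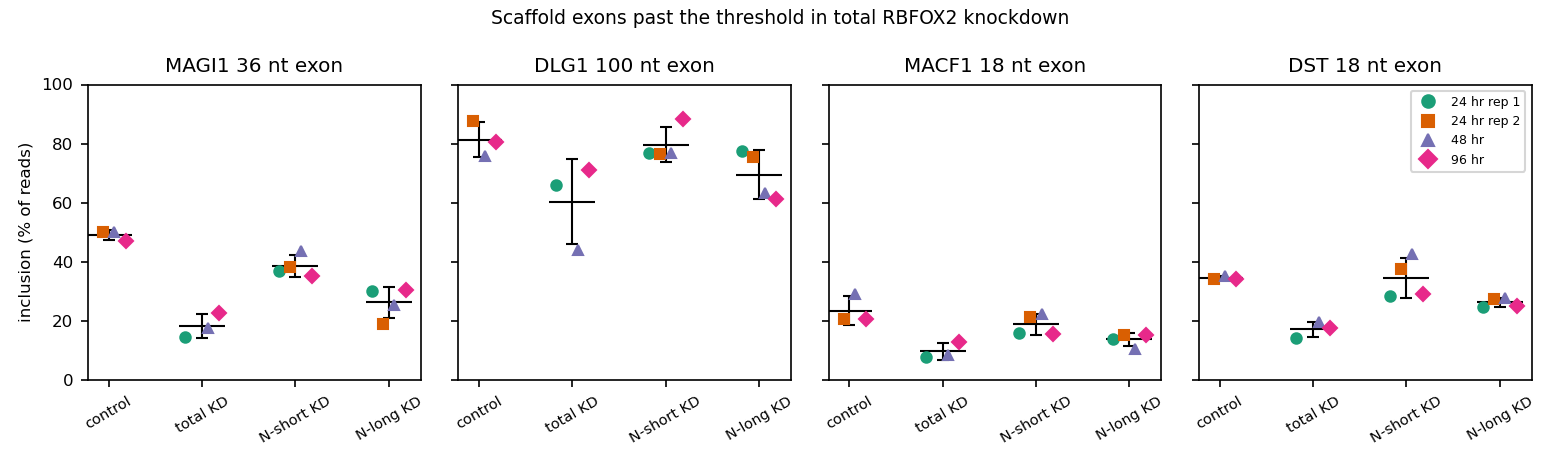
Inclusion in percent of reads (y axis) of the 4 exons past the threshold in total KD, for each of the 14 treated HUES66 libraries by group (x axis). Points are libraries, marked by set, and the black bar is the group mean ± SD. For MAGI1, MACF1 and DST every total KD point lies below every control point, and the DLG1 points at 43.8% to 71.1% lie below the controls at 75.8% to 87.5%.

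The 18-nt microexons of MACF1 and DST were both lower. The MACF1 exon was at 20.7%, 29.1% and 20.4% in control and at 7.73%, 8.24% and 12.8% in total KD at 24, 48 and 96 hr. The groups did not overlap, and the difference was -14.2 ± 9.4 points (SD, n = 2 sets; log2 odds ratio -1.50 ± 0.25 SE, edgeR adjusted p = 2.33e-05). The DST exon was at 34.2%, 35.1% and 34% in control and at 14.1%, 19.4% and 17.5% in total KD. Again no value overlapped, with a difference of -16.2 ± 0.575 points (SD, n = 2 sets; log2 odds ratio -1.25 ± 0.30 SE, edgeR adjusted p = 0.0106). The DST call was lost without the 48 hr total KD library or without the 96 hr control, with a highest edgeR adjusted p of 0.21.

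In DLG1 the 67-nt exon upstream was joined to alternative exons. Reads that left it went to the 97-nt or 100-nt form or directly to the 34-nt exon. Fewer reads joined the shared end of those forms to the 34-nt exon. They were 7 beside 26 direct reads in control and 7 beside 63 in total KD. In N-short KD they were 18 beside 34, and in N-long KD 17 beside 59. Wild-type HUES66 had 11 beside 18, so both exons were also used together. Counted in this way, after the values had been seen and with no test, the share that went directly to the 34-nt exon was 4.55%, 10.6% and 7.83% in control, from 110 to 115 reads each. In total KD it was 15.1%, 31.2% and 12.9% at 24, 48 and 96 hr, from 85 to 119 reads each. Each total KD library was above each control. N-long KD libraries stood at 9.92% to 18.8% and N-short KD libraries at 4.67% to 10.8%.

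The exon test saw this choice as lower inclusion of the 100-nt exon, at 87.5%, 75.8% and 80.6% in control and 66.0%, 43.8% and 71.1% in total KD. The difference was -20.8 ± 15.8 points (SD, n = 2 sets), with a log2 odds ratio of -1.60 ± 0.44 (SE) and an edgeR adjusted p of 0.0398. Its skipping reads are the direct joins to the 34-nt exon. Its inclusion junctions were unequal, with 877 reads on the side of the 67-nt exon and 49 on the other, and the call was lost when any of 7 of the 14 libraries was left out. The 34-nt exon itself was at 4.46% to 8.84% in control and 12.9% to 20.9% in total KD and did not pass (edgeR adjusted p = 0.51). Its inclusion junctions were unequal too, with 256 and 49 reads over the 14 treated libraries.

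A pair of exons stood at the opposite end without passing, and they are named after their values were seen. The SCRIB 63-nt exon (chr8:143807552-143807614) was at 88.1%, 86.0% and 90.9% in control and 100.0%, 94.1% and 97.4% in total KD, with an edgeR adjusted p of 0.0753. Every N-short and N-long KD library was also above every control for this exon, with means of 93.2% and 94.9%, and neither contrast passed. Wild-type HUES66 was at 95.1%. The controls were therefore the lowest HUES66 libraries, and the difference was not limited to total KD. Its cause was not tested. The PARD3 45-nt exon (chr10:34336199-34336243) was at 86.8%, 74.5% and 98.4% in control and 98.3%, 96.8% and 98% in total KD, with an edgeR adjusted p of 0.11. The control groups spread widely for PARD3, from 74.5% at 48 hr to 98.4% at 96 hr. When the wild-type HUES66 library, whose description shares the name of the controls, was added as the control of the 24 hr replicate 1 set, 6 of the 25 and 126 of all 6593 exons passed. The PARD3 45-nt exon (adjusted p = 0.0233) and the DLG1 97-nt form (adjusted p = 0.0477) were then past the threshold in edgeR as well.

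**Figure D2:**
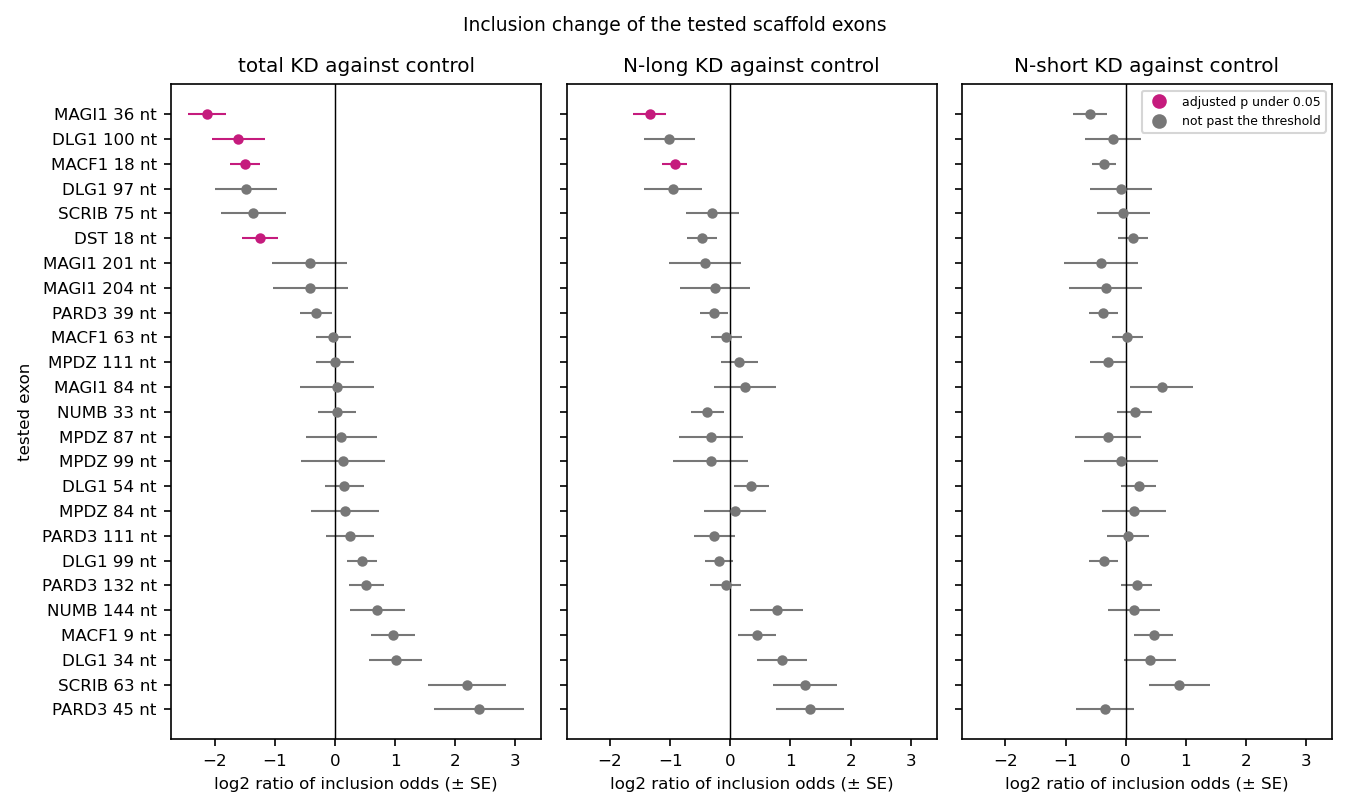
Log2 ratio of inclusion odds, knockdown over control, with its SE (x axis) for the 25 tested exons (y axis, ordered by total KD), in 1 panel per knockdown. Exons past the threshold are coloured: 4 in total KD, 2 in N-long KD and 0 in N-short KD.

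N-long knockdown lowered 2 of the 25 exons, the MAGI1 36-nt and the MACF1 18-nt exon, and raised none, where 39 of all 6593 exons (0.592%) passed. MAGI1 was at 30.1%, 18.9%, 25.3% and 30.4% in 24 hr replicates 1 and 2, 48 hr and 96 hr, all below the control range of 47.0% to 50%. The difference was -24.1 ± 7.27 points (SD, n = 3 sets), with a log2 odds ratio of -1.34 ± 0.28 (SE) and an edgeR adjusted p of 0.00314. This call was lost without the 24 hr control, at an edgeR adjusted p of 0.0813. MACF1 was at 13.8%, 15.1%, 10.5% and 15.0%, again below every control, with a difference of -9.84 ± 7.57 points (SD, n = 3 sets; log2 odds ratio -0.93 ± 0.21 SE, edgeR adjusted p = 0.00811). The MACF1 call was lost without the 48 hr control or the 48 hr N-long KD library, with a highest edgeR adjusted p of 0.684. The DST 18-nt exon, at 24.8% to 27.7% against 34% to 35.1% in control, did not pass (edgeR adjusted p = 0.966).

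N-short knockdown changed 0 of the 25 exons by edgeR, where edgeR called 1 of 6593 exons (0.0152%), and 1 of the 25 and 279 of all exons had an unadjusted p under 0.05. That exon was the MAGI1 36-nt exon, at 36.8%, 38.1%, 43.7% and 35.2%, below every control, with a difference of -10.0 ± 3.2 points (SD, n = 3 sets; edgeR adjusted p = 1.0). MACF1 18-nt inclusion was 15.6% to 22.4% and DST 18-nt inclusion 28.5% to 42.5%, both overlapping the control values. Limma called 0 of the 25 in this contrast and in N-long KD. Against each other, N-long and N-short KD differed in 0 of the 25 exons by either test, where edgeR called 28 of 6593 (0.425%), and 7 of the 25 and 328 of all exons had an unadjusted p under 0.05. The MAGI1 36-nt exon differed by -12.3 ± 7.58 points (SD, n = 4 sets), lower in N-long KD in 4 of 4 sets, and did not pass (edgeR adjusted p = 0.462). The 3 comparisons with control share the control libraries.

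The authors' deposited tables list all 25 tested exons, in 220 pairs of an exon and a table. Of these, 5 had an adjusted p under 0.05 there: MAGI1 36-nt and MACF1 18-nt in total KD at 24 and at 48 hr, and MACF1 18-nt in N-long KD at 48 hr. The share over all exons of the authors' deposited tables is not given here, so this count has no background beside it. For MACF1 the control minus knockdown differences in the authors' deposited tables were 0.127 in total KD at 24 hr and 0.216 at 48 hr. At 96 hr the authors' deposited table gave 0.057, with an adjusted p of 0.897. The DST 18-nt exon had differences of 0.175, 0.151 and 0.182 in the authors' deposited tables for total KD at 24, 48 and 96 hr, and adjusted p-values of 0.39, 0.655 and 0.61.

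Exons outside these genes whose inclusion followed that of the MACF1 18-nt exon most closely over the 14 libraries were ranked among 6567 exons. The highest Pearson r was 0.91, with a 111-nt exon of CTTN (cortactin, an actin-binding protein), which averaged 28.5% in control and 9.65% in total KD. Next came a 66-nt exon of the actinin gene ACTN1 (r = 0.87), a 57-nt exon of CLSTN1 (r = 0.87), a 141-nt exon of RNF146 (r = 0.86) and a 27-nt exon of MYH10, a nonmuscle myosin (r = 0.85). The ACTN1 exon averaged 3.25% in control and 1.3% in total KD, and did not pass there (edgeR adjusted p = 0.406), nor did the RNF146 exon (edgeR adjusted p = 0.722). The CTTN, CLSTN1 and MYH10 exons did. These correlations are across libraries that share sets and depth, and carry no test.

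Spliced reads summed over each of the 10 genes passed in no knockdown. By edgeR 0 of 10 did in total KD, against 305 of 13393 genes (2.28%). The same count, 0 of 10, was found for N-short KD (background 0.00747%), for N-long KD (0.0224%) and for N-long against N-short KD (0.0149%). At an unadjusted p under 0.05, 5 of the 10 and 1742 of all genes passed for total KD. For N-short KD, N-long KD and N-long against N-short KD, 0 of the 10 did, where 543, 595 and 679 of all genes had such a p. DESeq2 called 0 of the 10 throughout. With the wild-type HUES66 library as an added control, MPDZ passed in total KD (log2 fold change -0.13, edgeR adjusted p = 0.0231). The total KD log2 fold changes ran from -0.13 for MAGI3 to 0.03 for MAGI1, with 9 of 10 below 0 and a median of -0.08, against -0.000719 for all genes. MAGI1, whose 36-nt exon had the largest change of the 4 called exons, was at 106 to 139.9 normalised CPM in control and 114 to 139.8 in total KD. MACF1 reads (log2 fold change -0.09 ± 0.03 SE, edgeR adjusted p = 0.134) and DST reads (-0.07 ± 0.03 SE, edgeR adjusted p = 0.33) did not pass.

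**Figure D3:**
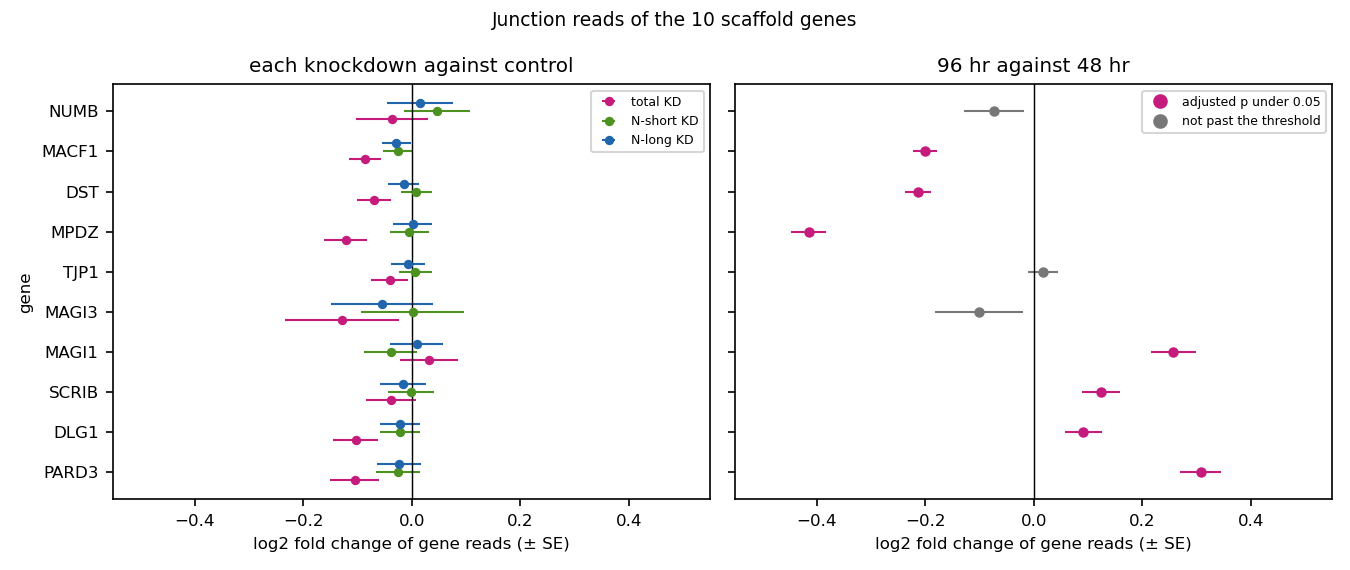
Log2 fold change of junction reads per gene with its SE (x axis) for the 10 genes (y axis). The left panel shows each knockdown against control, all not past the threshold, and the right panel shows 96 hr against 48 hr, with the 7 genes past the threshold coloured.

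Other genes of the polarity, junction and plakin pathways were read from a list of 72, of which 65 were tested. By edgeR 1 was higher and 1 lower in total KD, where 2.28% of all genes passed, and 0 passed in N-short KD (3 at an unadjusted p under 0.05) or N-long KD (2 at an unadjusted p under 0.05). The gene that was lower was DSP (desmoplakin, a plakin of desmosomes), with a log2 fold change of -0.26 ± 0.05 (SE, edgeR adjusted p = 0.00159). The higher was EPS15, an endocytic adaptor, at 0.16 ± 0.04 (SE, edgeR adjusted p = 0.0274). The list's median was -0.02 in total KD, against -0.000719 for all genes. Of the 33 tested cassette exons in these genes, 1 passed in total KD, where 1.4% of all exons did. It was a 27-nt exon of CLASP1, a protein that stabilises microtubule plus ends, which was 14.7 ± 1.02 points higher (SD, n = 2 sets; edgeR adjusted p = 0.0499).

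Between 48 and 96 hr of doxycycline 6 of the 25 exons differed, 4 higher and 2 lower at 96 hr, where 1002 of 6593 exons (15.2%) passed. These libraries are 1 per group and time, and time cannot be told apart from the harvest. By limma 0 of the 25 and 45 of all exons passed, with adjusted p-values of 0.063 to 0.127 for the 6. The largest difference in points was in the DLG1 99-nt exon (chr3:197161640-197161738). At 48 hr it was at 15.8% in control, 32.1% in total KD, 18.4% with the N-short and 19.8% with the N-long knockdown. At 96 hr the same groups stood at 48.9%, 51.7%, 45.2% and 40.1%. Every 96 hr value was above every 48 hr value, by 24.9 ± 6.35 points within groups (SD, n = 4; log2 odds ratio 1.66 ± 0.21 SE, edgeR adjusted p = 6.81e-08). The 24 hr sets also differed from each other, at 40.6% to 56.3% (mean 49.9%) in replicate 1 and 28% to 39.2% (mean 31.8%) in replicate 2. The 56.3% was the total KD library, a group that replicate 2 lacks. By their library names these 24 hr sets also come from different library series.

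The other time differences were smaller in points. The MACF1 9-nt exon went from 91.3% to 94.4% at 48 hr to 96.6% to 99.7% at 96 hr (edgeR adjusted p = 9.11e-06), and both 24 hr sets lay at 96.2% to 98.7%. The PARD3 45-nt exon was at 74.5%, 96.8%, 66.1% and 91.6% at 48 hr in control, total, N-short and N-long KD, and at 95.2% to 98.4% at 96 hr (edgeR adjusted p = 2.45e-04). In PARD3 the total KD library at 48 hr lay within the 96 hr range. At 24 hr this exon was at 95.8% to 100% in replicate 1 and 86.8% to 93.0% in replicate 2. The SCRIB 75-nt exon was at 10.1% to 24.3% at 48 hr and 6.49% to 8.47% at 96 hr (edgeR adjusted p = 0.00273). At 24 hr it was at 4.71% to 11.1% in replicate 1 and 7.14% to 16.5% in replicate 2. For these exons the values therefore do not show a steady course from 24 to 96 hr.

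In MPDZ the 84-nt and the 99-nt exon differed between 48 and 96 hr in opposite directions. The 84-nt exon was at 91.4% to 95.7% at 48 hr and 77.2% to 85.1% at 96 hr (edgeR adjusted p = 0.00925). The 99-nt exon was at 2.17% to 11.1% at 48 hr and 11.9% to 36.2% at 96 hr (edgeR adjusted p = 0.00965). In 24 hr replicates 1 and 2 the 84-nt exon was at 87.4% to 94.4% and 91.8% to 94.4%. The 99-nt exon was at 20.0% to 22.9% and 9.09% to 22.4% in these sets. The 84-nt call was lost without the control of either time (highest edgeR adjusted p = 0.102), and the 99-nt call without the total KD library of either time (highest edgeR adjusted p = 0.138). The NUMB exons did not pass, at edgeR adjusted p-values of 0.0575 for the 33-nt and 0.0601 for the 144-nt exon.

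**Figure D4:**
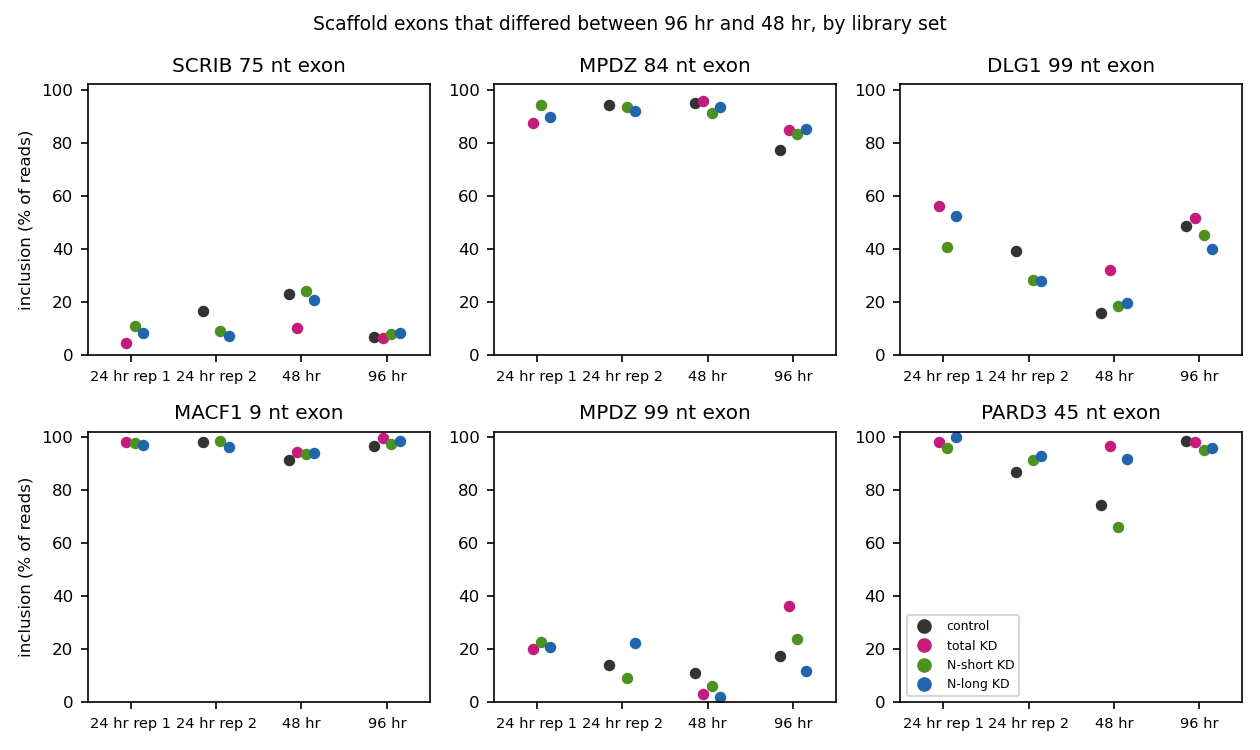
Inclusion in percent of reads (y axis) of the 6 exons that differed between 96 and 48 hr, by library set (x axis). Points are libraries coloured by group. The DLG1 99-nt exon lies at 15.8% to 32.1% at 48 hr and 40.1% to 51.7% at 96 hr. The 24 hr sets differ in replicate, library series and groups held, which cannot be told apart.

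Gene reads also differed by time, in 7 of the 10 genes, where 7760 of 12909 genes (60.1%) passed. A share of 7 in 10 is near that background. MPDZ was at 279, 267, 300 and 287 normalised CPM at 48 hr and 220, 203, 210 and 218 at 96 hr in control, total, N-short and N-long KD (log2 fold change -0.41 ± 0.03 SE, edgeR adjusted p = 4.66e-11). DST (-0.21) and MACF1 (-0.20) were also lower. PARD3 rose from 139.8 to 148 at 48 hr to 162 to 189.9 at 96 hr (log2 fold change 0.31 ± 0.04 SE, edgeR adjusted p = 1.39e-07). MAGI1 (0.26), SCRIB (0.12) and DLG1 (0.09) were higher as well, and TJP1, NUMB and MAGI3 did not pass. The 24 hr replicates differed from each other by more than these time changes in DST, MACF1, SCRIB and DLG1. From replicate 1 to replicate 2 the set means were 765 and 1107 normalised CPM for DST and 1468 and 1762 for MACF1. They were 159 and 119 for SCRIB and 217 and 242 for DLG1. Replicate 1 holds total KD and no control and replicate 2 the reverse, so these means are over different groups, and over different library series. The DLG1 gene call was lost by DESeq2 (adjusted p = 0.074) and without any 1 of 6 of the 8 libraries.

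In the pathway list 14 genes were higher and 24 lower at 96 hr of 64 tested, near the background of 60.1% of all genes. Of its 33 exons 3 were higher and 4 lower, where 15.2% of all exons passed. CASK, a membrane guanylate kinase that binds cell-surface proteins, had a 69-nt exon that was 29.6 ± 9.76 points higher and a 36-nt exon with a difference of -19.4 ± 6.72 points (SD, n = 4 groups). Of 18 splicing regulators examined, RBFOX2 and PTBP2 passed in total KD. PTBP2 fell by 0.21 on the log2 scale there (edgeR adjusted p = 0.0199), and its part in the exon values was not tested. At 96 hr 9 of the 18 were higher, among them PTBP1 (0.35) and SRSF1 (0.56), and 2 lower, near the background of 60.1% of all genes.

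Across the 3 cell lines, with 1 library each and no test, 41 exons of these genes had at least 20 reads in every line, and 7 ranged over at least 20 points. The matching share of all exons over the 3 lines is not given here. The shares below are for pairs of lines and are no background for that count. A pair of libraries was counted as different at 20 points. By that rule 5 of 45 exons differed between wild-type HUES66 and HEK293 (all genes 2.93%), and 7 of 42 between HUES66 and A375 (3.06%). Between HEK293 and A375 1 of 41 did (2.5%), the DLG1 97-nt form at 33.3% and 10.6%. The DLG1 97-nt and 100-nt forms were in both larger counts, and the DLG1 34-nt exon was among the 7. These DLG1 exons share junction reads, so the counts hold fewer separate events than exons. By their library names the 3 lines come from 3 different library series, so cell line and library series cannot be told apart. The values that follow carry 95% Wilson intervals, which cover counting error only.

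The 7 exons lay in DLG1, NUMB, DST and TJP1. The DST 18-nt exon was at 31.1% (24.3% to 38.9%) in HUES66, 89.9% (83.2% to 94.1%) in HEK293 and 84.9% (73.0% to 92.2%) in A375. The matching MACF1 exon stood at 18.4%, 22.1% and 15.6%, so unlike the DST exon it ranged over less than 20 points. RBFOX2 gene reads were 127, 105 and 83.4 CPM in these libraries. Other splicing regulators differed more, such as ESRP1 at 301, 8.01 and 0.127 CPM and MBNL1 at 14.8, 53.5 and 141 CPM. The part of any regulator in these values was not tested.

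Both NUMB exons were used most in HUES66. The 144-nt exon, which adds to the proline-rich region of the protein, was at 75.9% (65.7% to 83.8%) in HUES66, 31.9% (16.8% to 52.1%) in HEK293 and 21.7% (9.66% to 41.9%) in A375. The 33-nt exon, which adds to the phosphotyrosine-binding domain, was at 73.8% (66.1% to 80.3%), 36.5% (25.7% to 48.9%) and 49.3% (33.3% to 65.4%). The HEK293 and A375 intervals overlapped for both. Over the 14 treated HUES66 libraries the exons ran from 50.7% to 90.7% and from 54.8% to 80.8%, and neither passed in a knockdown contrast.

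DLG1 joined its 67-nt exon directly to the 34-nt exon more often in HEK293 and A375 than in HUES66. The share of reads from the 67-nt exon that went directly to the 34-nt exon was 7.79% (4.99% to 12%) in HUES66, 32.7% (21.5% to 46.2%) in HEK293 and 46.7% (32.9% to 60.9%) in A375. Inclusion of the 100-nt exon was 80.4%, 41.4% and 31.1%, and of the 34-nt exon 11.8%, 21.8% and 35.6%. These percentages average unequal junctions, among them the sparse join of the 100-nt form to the 34-nt exon, which lowers them. Of the reads from the 67-nt exon, 21 of 52 in HEK293 and 19 of 45 in A375 went to the 100-nt form. Another 14 and 5 went to the 97-nt form. TJP1 nearly lacked its 240-nt exon, which encodes the alpha region of ZO-1, in HUES66 at 1.11% (0.454% to 2.68%). It was included in 19.1% (11.5% to 30%) of reads in HEK293 and 32.7% (21.4% to 46.4%) in A375.

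Smaller ranges were found in the MPDZ 111-nt exon (58.9%, 41.5% and 46.3% in HUES66, HEK293 and A375), the SCRIB 75-nt exon (14.6%, 3.37% and 19.6%) and the DLG1 99-nt exon (41.4%, 27.1% and 41.3%). The MAGI1 36-nt exon was at 51.5% in HUES66 from 152.5 reads. It had only 18 reads in HEK293 (44.4%, 24.6% to 66.3%) and 10 in A375 (90%, 59.6% to 98.2%), too few for the rule. The 91-nt exon of MAGI3 had 27.5 reads in HEK293, which gave 23.6% (11.7% to 42.1%).

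**Figure D5:**
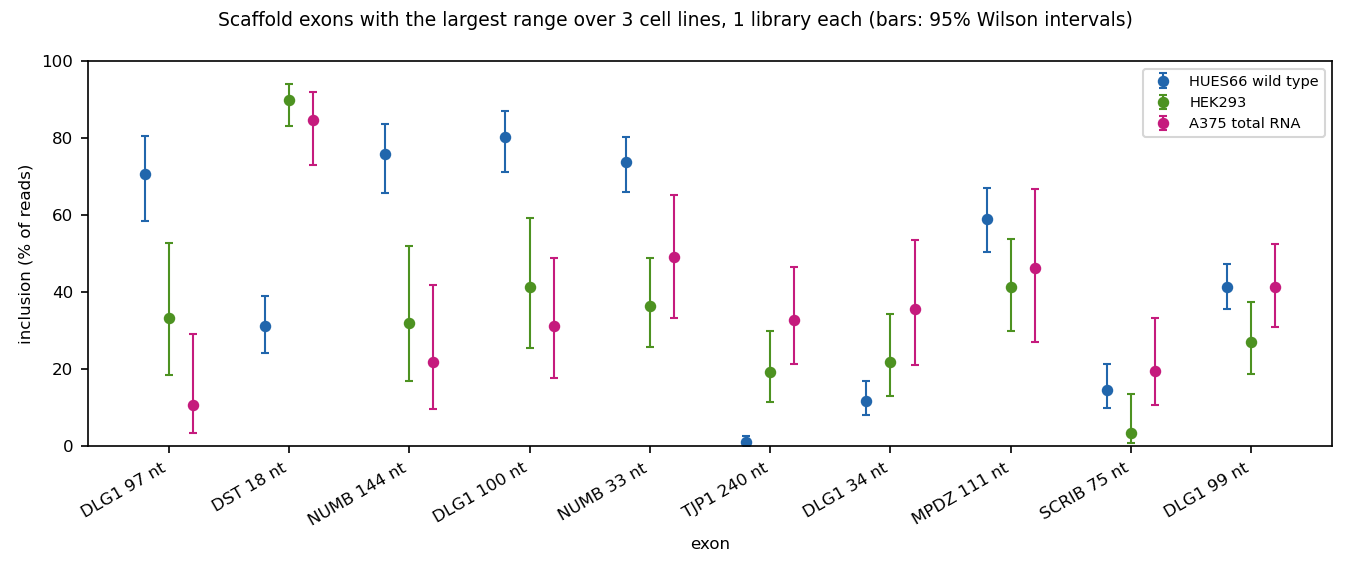
Inclusion in percent of reads (y axis) of the 10 exons with the largest range over 3 cell lines (x axis), with 1 library per line and 95% Wilson intervals as bars. HUES66 stands apart from HEK293 and A375 in DST (31.1% against 89.9% and 84.9%) and in the NUMB 144-nt exon (75.9% against 31.9% and 21.7%).

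Gene reads set MAGI1 and MAGI3 apart between lines. CPM values here are not scaled by length, so levels are compared only within a gene. MAGI1 was at 129.7 CPM (95% exact Poisson interval 125 to 134) in HUES66, 31.5 (27.9 to 35.4) in HEK293 and 34 (30 to 38.3) in A375. MAGI3 was at 21.6 (19.9 to 23.5), 93.6 (87.4 to 100.2) and 21.2 (18.1 to 24.6). By a rule of at least 2-fold, 2 of 10 genes differed between HUES66 and HEK293 (all genes 40.1%), 1 between HUES66 and A375 (45.1%) and 2 between HEK293 and A375 (38.1%), where DST was the other at 1537 against 708 CPM. The remaining genes stayed within 2-fold in every pair of lines. In HUES66, HEK293 and A375, TJP1 was at 438, 314 and 242 CPM, MPDZ at 222, 296 and 154, and MACF1 at 1496.5, 919 and 1535. The polarity genes PARD3 (163, 181 and 123 CPM), DLG1 (218, 189 and 169), SCRIB (160.5, 115 and 191) and NUMB (52.0, 51.5 and 33.6) are given in the same order. TMM factors moved the median log2 ratio of all genes from -0.10 to 0.13 for HUES66 over HEK293, from -0.00318 to 0.11 for HUES66 over A375 and from 0.10 to -0.02 for HEK293 over A375, and DST between HEK293 and A375 then missed 2-fold.

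Between the A375 fractions 1 of 33 exons differed by 20 points (all genes 1.45%). The NUMB 33-nt exon was at 19.1% (8.11% to 38.9%) in nuclear RNA from 23.5 reads and 56.3% (45.9% to 66.3%) in cytoplasmic RNA from 87 reads. The next in size were the PARD3 39-nt exon, at 57.3% and 40.1%, and the DST 18-nt exon, at 96.3% and 82.1%, followed by the MACF1 63-nt exon (79.6% and 87.8%) and the PARD3 132-nt exon (84.8% and 78.6%). The Wilson intervals of these 4 overlapped between fractions.

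Reads of 3 of the 10 genes were at least 2-fold higher in the nuclear than in the cytoplasmic library, where 41.9% of all genes differed 2-fold either way. DST was at 1086 CPM (95% exact Poisson interval 1060 to 1113) in nuclear and 92.8 CPM (88.7 to 97) in cytoplasmic RNA, an 11.7-fold difference. MACF1 was at 2253 and 390 CPM, 5.78-fold, and MPDZ at 217 and 54.8 CPM, 3.96-fold. SCRIB was lower in the nuclear library, at 181 against 247 CPM, and NUMB was at 37.6 and 36.4 CPM. The median log2 ratio of the 10 genes was 0.67, against -0.11 for all genes.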

How the data were processed

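Per the labels, 19 libraries were sequenced, and per the submitters' processing notes STAR 2.7.1 and SAMtools 1.9 were used. The authors deposited 1 splice junction table per library, whose raw counts of spliced reads per junction were used as deposited, and how the junctions were extracted is not given in the sources used here. They also deposited 9 tables of exon comparisons with p-values, adjusted p-values and inclusion differences, which carry the sign of control minus knockdown. A further 69 per-library columns of those tables were not used. How the authors made those p-values is not given in the sources used here.

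Junctions were matched to GENCODE 29 introns (GRCh38). A cassette exon had at most 1000 nt, both inclusion junctions and a skipping junction annotated, and the skipping junction with the most reads was taken. To be tested, an exon needed on average 20 reads in each treated library, with 2% to 98% inclusion over all of them. EdgeR 4.0.16 (R 4.3.3) fitted quasi-likelihood models to inclusion and skipping reads of all 6593 exons, with library, set and knockdown as terms, and to gene counts after TMM scaling and filterByExpr. P-values were adjusted by Benjamini-Hochberg over all features, with a threshold of 0.05. The 96 against 48 hr test used 8 libraries. Single libraries were compared by 20 points with at least 20 reads in both, or by 2-fold CPM with a pseudocount of 0.5 reads. Limma 3.58.1, DESeq2 1.42.0, other filters and left-out libraries were alternatives, and the code was tested on simulated data.

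The set was kept as a block. Deviations from group means correlated between libraries of the same set (median r = 0.56 over 18 pairs, range 0.33 to 0.77). Between sets the median r was -0.26 over 73 pairs (range -0.74 to 0.51), a value that removing the group means itself lowers. The labels give the times and replicate numbers. The genes and lists were chosen with earlier results of these data known. Named exons were those past the threshold in a knockdown or time contrast, the most covered exon of a gene with none, the 10 with the largest range over the cell lines and the 5 with the largest difference between fractions.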

Additional observations from a re-analysis of the deposited data

Results flagged for a closer look

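In 4 of 70 groups of 4 libraries, 1 library lay far from the others by Dixon's ratio, the gap to the nearest value over the whole range, and chance gives about 1 in 20. The 4 libraries of a group come from different sets and times, so they are not like replicates. In N-short KD the PARD3 45-nt exon was at 66.1% at 48 hr, against 91.3% to 95.8% in the other libraries (ratio 0.85). The 48 hr control was also low for this exon, at 74.5%, while total and N-long KD were at 96.8% and 91.6%. The DLG1 100-nt exon was at 88.4% at 96 hr in N-short KD, against 76.5% to 76.8% (ratio 0.969). In N-long KD the SCRIB 75-nt exon was at 20.6% at 48 hr, against 7.14% to 8.54% (ratio 0.897). Other 48 hr libraries were near that value, at 23.1% in control and 24.3% in N-short KD, while total KD was at 10.1%. The PARD3 132-nt exon was at 67% in 24 hr replicate 1 of N-long KD, against 70.2% to 70.7% (ratio 0.86).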

How the results depend on the processing

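Limma on log2 ratios called 0 of the 25 exons in total KD, in N-long KD and between 96 and 48 hr. Over all exons it called 12 in total KD, 0 in N-long KD, 0 in N-long against N-short KD and 45 in time, where edgeR called 92, 39, 28 and 1002. Leaving out 1 library at a time gave 2 to 4 exons in total KD, with 2 without the 48 hr total KD library or the 96 hr control. It gave 1 to 2 in N-long KD, with 1 without the 24 hr control, the 48 hr control or the 48 hr N-long KD library. The MAGI1 36-nt and MACF1 18-nt calls in total KD were kept in all 14 of these fits. With wild-type HUES66 as a control, 1 of the 10 genes passed in total KD, and 549 of all genes did, against 305.

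Without the replicate block, with time alone as a term, the count of exons called was 4 in total KD and 2 in N-long KD, and MAGI1 had a log2 odds ratio of -2.08 in total KD (edgeR adjusted p = 1.52e-05). Over all features 86 exons then passed in total KD, 23 in N-long KD, 15 in N-long against N-short KD and 0 in N-short KD. In total KD 62 genes passed (48 higher, 14 lower, against 139 and 166 with the block). RBFOX2 lost its call in N-long KD (-0.61, edgeR adjusted p = 0.461) and against N-short KD (-0.52, edgeR adjusted p = 1.0). Its N-short KD change ranged from -0.11 to 0.00249 over the libraries left out, and its sign turned when the 24 hr control (0.00131) or the 96 hr N-short KD library was omitted. Without a filter on low counts 16 genes passed in N-long KD, 17 in N-long against N-short KD and 4 in N-short KD. A minimum mean of 10 reads gave 6 exons in N-short KD, and the smaller inclusion junction gave 3. DESeq2 called 1 gene in N-long KD, 1 in N-long against N-short KD and 0 in N-short KD. The cause of these differences was not tested.

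Between single libraries the counts moved with the threshold. At 10 points, 11 of 45 exons differed between HUES66 and HEK293 (all genes 9.74%), 11 of 42 between HUES66 and A375 (8.83%), 10 of 41 between HEK293 and A375 (9.17%) and 3 of 33 between fractions (6.35%). With at least 50 reads, 2 of 30 (1.94%), 2 of 21 (1.88%), 0 of 19 (1.39%) and 0 of 10 (0.684%) did. At 1.5-fold, 4, 3, 6 and 6 of 10 genes differed (59.7%, 64%, 58.2% and 63.6% of all genes). With TMM factors 1 of 10 differed between HEK293 and A375 (37.4%). Depth limits the exon values, and the DLG1 100-nt exon averaged 46.1 reads per library.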
